A study of Mus musculus with 16 samples.

Results

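The 9 genes described here encode the core of the Hedgehog pathway: the ligand Shh, the receptor Ptch1, the co-receptor Boc, the signal transducer Smo, the inhibitors Sufu and Hhip, and the transcription factors Gli1, Gli2 and Gli3. They were chosen by name from the pathway, and each of the 9 was found in both deposited tables, which list 24982 genes with counts and 24951 with TPM values. Expression was measured by RNA-seq in 16 primary rhabdoid tumors, each from a different mouse. All mice were Smarcb1 flox/flox and carried CreERT2 at the Rosa26 locus, on a mixed 129/SV and C57BL/6 background. Cre was ubiquitous, so tamoxifen given to the embryo inactivated Smarcb1 in unrestricted cell types. The 5 intra-CNS tumors lay within the brain parenchyma, were induced at E6 and were taken at 30 to 180 days of age. The 6 intracranial extra-CNS tumors lay within the skull but outside the parenchyma. They were induced at E6 (1 tumor), E7 (1 tumor) or E8 (4 tumors) and taken at 52 to 170 days. The 5 extracranial tumors, from the back, jaw, nose or mouth, were induced at E6 (1 tumor) or E8 (4 tumors) and taken at 80 to 210 days. The study classes the intra-CNS tumors as Shh tumors and the other 11 as Myc tumors. They are called by their location here, and Shh denotes the gene.

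In the absence of ligand, Ptch1 holds Smo inactive, and Sufu together with the primary cilium keeps Gli2 and Gli3 silent or processed into repressors. Ligand binding to Ptch1, aided by Boc, releases Smo and allows full-length Gli proteins to enter the nucleus. Gli1, Ptch1 and Hhip are themselves transcribed in response, so their mRNA is widely read as pathway output, and in the embryonic ventral neural tube this response patterns progenitor domains.

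Levels are given as TPM, which corrects for gene length and so allows genes to be compared with each other. Fold changes are log2 values from edgeR on the raw counts. Their standard errors (SE) were derived from the fold change and the F statistic of its test. To be called, a gene had to differ by more than 1 on this scale with an adjusted p below 0.05. Total counts per tumor ranged from 17889968 to 110177889, and 3 counts were set as the detection floor. Smarcb1, the targeted gene, was at 3.99 to 9.91 TPM in 4 intra-CNS tumors and at 58.1 TPM in that of mouse 29048, against 6.48 to 43.7 TPM in the 11 extra-CNS tumors. The highest of these 11 was the intracranial tumor of R26P115, and the next, that of 43825B, was at 26.1 TPM. The part of cells that kept Smarcb1 in any tumor was not tested. The 29048 tumor also held 3833 TPM summed over 4 oligodendrocyte markers, while the next highest, that of 29050A, held 83.2 TPM. These are bulk tumors, so fewer cells of a type and less RNA per cell cannot be told apart.

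Of the 9 members, 6 were called between intra-CNS and extra-CNS tumors, each higher in intra-CNS tumors (Shh, Ptch1, Sufu, Gli2, Hhip and Boc), and none was lower. Among all 21854 genes tested, 12.9% were called and higher in intra-CNS tumors. The median log2 fold change was 1.69 over the 9 members and -0.15 over all genes. The 3 members not called were Smo, Gli1 and Gli3. For Shh and Ptch1, each intra-CNS tumor lay above each extra-CNS tumor, as did 12.9% of the 21841 genes with a TPM value and a count in any tumor.

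**Figure D1:**
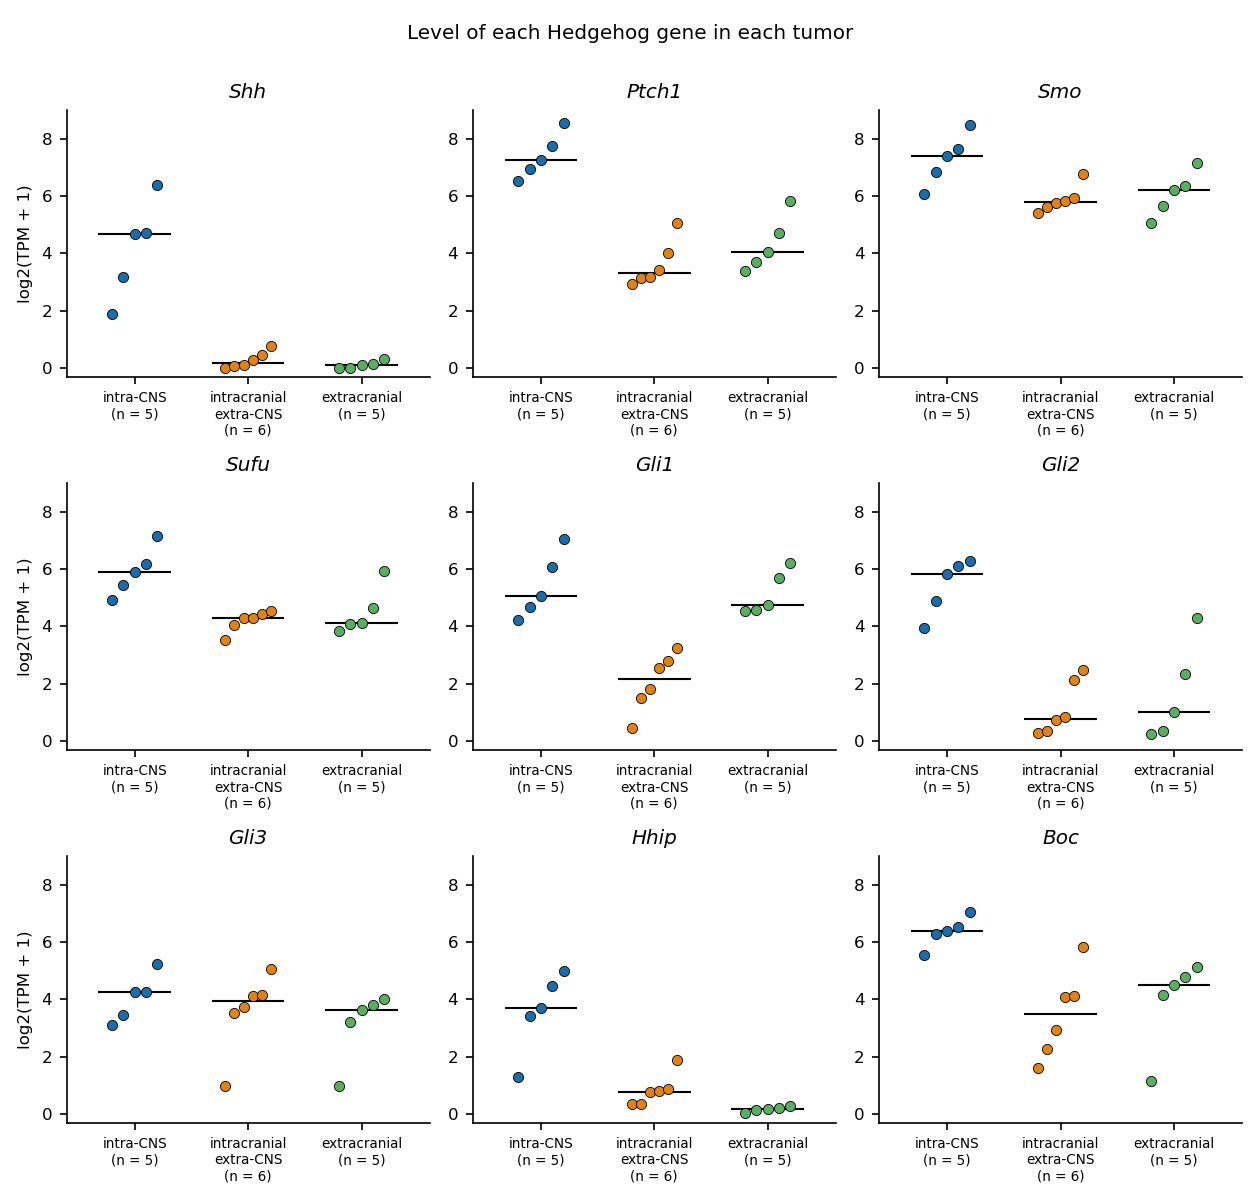
Level of each of the 9 genes as log2(TPM + 1) (vertical axis) in each tumor, by location (horizontal axis, 5 intra-CNS, 6 intracranial extra-CNS and 5 extracranial tumors). Points are tumors in rising order and lines are medians. Shh and Ptch1 are highest in the 5 intra-CNS tumors, whereas Gli1 is lowest in the 6 intracranial extra-CNS tumors.

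The ligand showed the widest difference among the members. Shh (ENSMUSG00000002633.4, chromosome 5, 28456815 to 28467256 in GRCm38) was at 2.72, 8.13, 24.5, 25.0 and 81.9 TPM in the 5 intra-CNS tumors. In the intracranial extra-CNS tumors it ranged from 0 to 0.725 TPM with a median of 0.139 TPM, and the extracranial tumors were at 0, 0, 0.0839, 0.109 and 0.240 TPM. The ligand transcript was thus at or near the floor outside the brain parenchyma, with 3 counts or fewer in 4 of the 11 extra-CNS tumors. The highest of these 11, the intracranial tumor of 29225D, held 53 counts. The log2 fold change between intra-CNS and extra-CNS tumors was 6.89 (SE 0.98, edgeR adjusted p = 9.56e-05). The other ligand genes were not called. Ihh had a log2 fold change of 0.024 (SE 0.78, edgeR adjusted p = 0.99) and Dhh one of 0.51 (SE 0.75, adjusted p = 0.61).

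Ptch1 (ENSMUSG00000021466.12, chromosome 13, 63508328 to 63573598) was at 91.5, 122, 152, 212 and 372 TPM in the intra-CNS tumors. It ranged from 6.61 to 32.0 TPM (median 8.87 TPM) in the intracranial extra-CNS tumors and was at 9.56, 11.9, 15.5, 25.3 and 56.1 TPM in the extracranial tumors. All 11 extra-CNS tumors lay below the lowest intra-CNS tumor, and the 2 extra-CNS locations overlapped. The log2 fold change was 2.86 (SE 0.48, edgeR adjusted p = 0.000335). By median TPM, Ptch1 was the second most abundant member in intra-CNS tumors after Smo, and the fifth in each of the other locations. By mean TPM it lay above Smo in intra-CNS tumors (190 against 180 TPM).

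Hhip (ENSMUSG00000064325.4, chromosome 8, 79965851 to 80058006), which sequesters the ligand at the cell surface, was at 1.45, 9.80, 12.0, 21.3 and 30.5 TPM in the intra-CNS tumors. It ranged from 0.271 to 2.71 TPM (median 0.724 TPM) in the intracranial extra-CNS tumors and was at 0.0244, 0.104, 0.133, 0.162 and 0.227 TPM in the extracranial tumors. The lowest intra-CNS tumor, that of 29050A, lay below the highest intracranial extra-CNS tumor, that of 43992A, and the other 4 lay above all extra-CNS tumors. The log2 fold change between intra-CNS and extra-CNS tumors was 4.15 (SE 0.83, edgeR adjusted p = 0.00119).

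Sequences before the RefSeq start sites of Ptch1 and Hhip are shown here because both are pathway targets and both were higher in intra-CNS tumors. RefSeq (GRCm38.p6) windows were at hand for 6 members, and Gli1, Shh and Boc were not matched. Each stretch holds the 250 bases upstream of the RefSeq start, 5′ to 3′ on the minus strand of its chromosome, with each CG dinucleotide in capitals. The Ptch1 stretch is chr13:63565736-63565985 and the Hhip stretch chr8:80058009-80058258. The Ptch1 stretch lies inside the GENCODE locus, which extends to 63573598, while the Hhip stretch lies just outside its locus, which ends at 80058006.
Ptch1: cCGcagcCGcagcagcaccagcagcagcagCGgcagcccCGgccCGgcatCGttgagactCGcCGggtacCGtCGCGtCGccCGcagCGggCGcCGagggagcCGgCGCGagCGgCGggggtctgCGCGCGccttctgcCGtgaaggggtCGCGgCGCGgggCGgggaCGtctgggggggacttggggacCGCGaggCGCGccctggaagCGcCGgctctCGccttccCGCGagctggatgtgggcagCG
Hhip: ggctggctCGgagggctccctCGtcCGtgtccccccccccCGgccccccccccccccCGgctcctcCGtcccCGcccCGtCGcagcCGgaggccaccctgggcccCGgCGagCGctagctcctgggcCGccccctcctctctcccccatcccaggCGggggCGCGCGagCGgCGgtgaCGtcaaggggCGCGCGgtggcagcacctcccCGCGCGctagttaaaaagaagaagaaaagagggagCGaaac
The Ptch1 stretch held 41 CG dinucleotides and the Hhip stretch 28, against a median of 6 over 32851 RefSeq promoters. The 9-base Gli binding motif GACCACCCA was searched on both strands over 250 bases before and 50 bases after the start, and it was found in 0.253% of all windows and in none of the 6 member windows. With 1 mismatch allowed it was found in 6.74% of all windows and again in none of the 6. This says only that these letters were not in these windows.

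Among the transcription factors, the 3 Gli genes followed 3 different patterns. Gli2 (ENSMUSG00000048402.14, chromosome 1, 118834132 to 119053619), the main activator upstream of Gli1, was at 14.3, 28.8, 55.2, 68.2 and 76.4 TPM in the intra-CNS tumors. It ranged from 0.229 to 4.63 TPM (median 0.724 TPM) in the intracranial extra-CNS tumors and was at 0.176, 0.266, 1.02, 4.10 and 18.5 TPM in the extracranial tumors. Only the extracranial tumor of 43990A, at 18.5 TPM, reached into the intra-CNS range, above the tumor of 29048. The log2 fold change was 3.49 (SE 0.91, edgeR adjusted p = 0.00787).

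Gli1 (ENSMUSG00000025407.7, chromosome 10, 127329882 to 127341974) was at 17.7, 24.3, 32.6, 66.7 and 131 TPM in the intra-CNS tumors. In the extracranial tumors it was at 21.9, 22.8, 25.8, 50.5 and 73.0 TPM, and in the intracranial extra-CNS tumors it ranged from 0.375 to 8.56 TPM with a median of 3.69 TPM. The extracranial tumors thus lay inside the intra-CNS range, and the intracranial extra-CNS tumors lay below both. Between intra-CNS and all extra-CNS tumors the log2 fold change of 0.96 (SE 0.84, edgeR adjusted p = 0.39) did not pass the threshold, and it ran from 0.32 (without R26P98) to 1.38 (without 43990A) when single tumors were left out, with none of these values called. Gli3 (ENSMUSG00000021318.15, chromosome 13, 15463235 to 15730026), a repressor when ligand is absent, ranged from 7.72 to 36.4 TPM in intra-CNS, from 0.951 to 32.1 TPM in intracranial extra-CNS and from 0.995 to 15.3 TPM in extracranial tumors. Its log2 fold change was -0.0036 (SE 0.60, edgeR adjusted p = 0.997), with locations that overlapped, and its sign turned under other scalings, tools and filters.

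**Figure D2:**
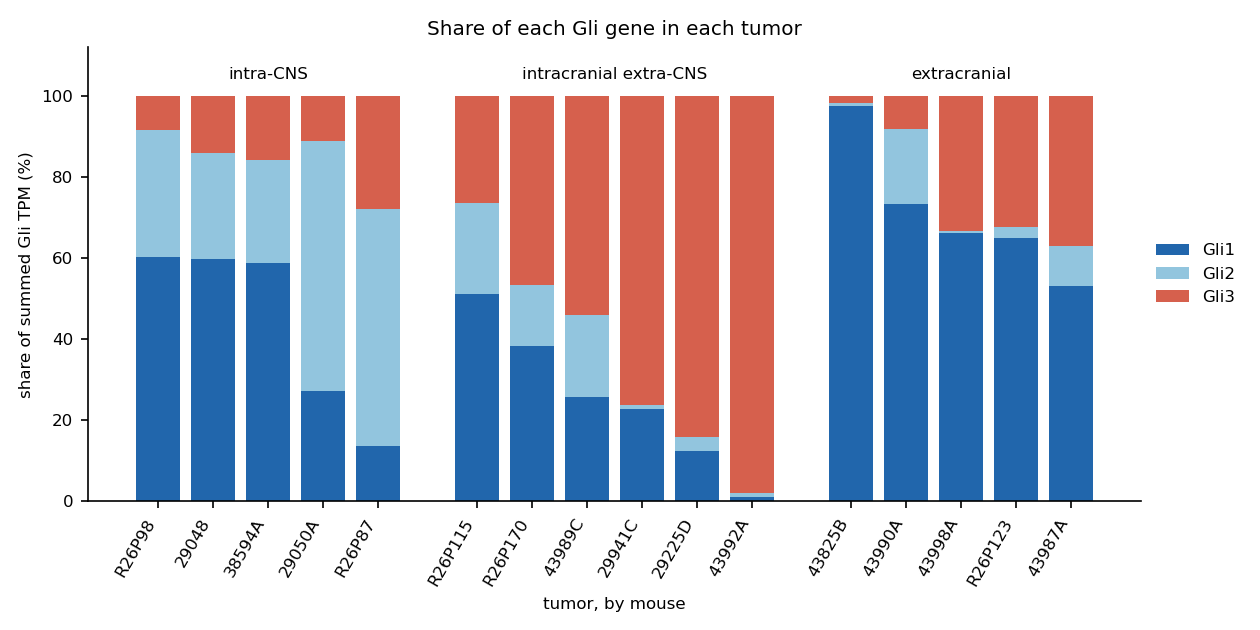
Share of Gli1, Gli2 and Gli3 in their summed TPM (vertical axis, percent) in each of the 16 tumors (horizontal axis, by mouse and location). Gli3 is the largest share in 5 of the 6 intracranial extra-CNS tumors and Gli1 in each of the 5 extracranial tumors.

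As a share of the summed TPM of the 3 Gli genes, Gli1 took 43.9% ± 22.0 (SD, n = 5), Gli2 40.7% ± 18.0 and Gli3 15.5% ± 7.50 in intra-CNS tumors. In intracranial extra-CNS tumors, Gli3 took 64.3% ± 26.5 (SD, n = 6) and Gli1 25.3% ± 17.9. In extracranial tumors, Gli1 took 71.0% ± 16.5 (SD, n = 5) and Gli2 6.41% ± 7.82. Gli1 was the most abundant of the 3 in each extracranial tumor. Gli3 was the most abundant in 5 of the 6 intracranial extra-CNS tumors, all but that of R26P115, and Gli1 or Gli2 in the intra-CNS tumors (3 and 2 tumors). The summed level was 121 ± 60.9 TPM, 20.5 ± 9.47 TPM and 53.4 ± 26.7 TPM in the 3 locations. These shares are given as a description, with no test.

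The remaining members receive or relay the signal. Smo (ENSMUSG00000001761.7, chromosome 6, 29735503 to 29761365) was the most abundant member by median TPM in each location, at 65.8 to 359 TPM in intra-CNS, 41.9 to 109 TPM in intracranial extra-CNS and 32.6 to 141 TPM in extracranial tumors. Its log2 fold change of 0.90 between intra-CNS and extra-CNS tumors (SE 0.35, edgeR adjusted p = 0.0569) did not pass the threshold, and limma on log2(TPM + 1) called it (1.30, adjusted p = 0.00912). With single tumors left out, the value for Smo ran from 0.48 (without R26P98) to 1.11, and edgeR called it in 3 of 16 cases, without 29048 (adjusted p = 0.0203), 38594A (adjusted p = 0.0498) or 43990A (adjusted p = 0.0216). Sufu (ENSMUSG00000025231.17, chromosome 19, 46396896 to 46488804) was at 29.6 to 142 TPM in intra-CNS tumors and at 10.4 to 59.3 TPM in extra-CNS tumors, of which only 43990A reached the intra-CNS range (log2 fold change 1.18, SE 0.35, edgeR adjusted p = 0.0175). The Sufu call was lost without the intra-CNS tumor of R26P87 (0.75, edgeR adjusted p = 0.115). Boc (ENSMUSG00000022687.12, chromosome 16, 44485049 to 44558897) was at 45.7 to 130 TPM in intra-CNS tumors and at 1.23 to 56.1 TPM in extra-CNS tumors, with only 43989C in the intra-CNS range. Its log2 fold change of 1.69 (SE 0.63, edgeR adjusted p = 0.0478) lay close to the threshold, and leaving out single tumors removed the call in 13 of 16 cases (edgeR adjusted p up to 0.114).

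The difference was then divided by location, in a fit with the 3 locations as groups. Both contrasts share the intra-CNS tumors. Against the intracranial extra-CNS tumors, 6 of the 9 members were called and higher in intra-CNS tumors (Shh, Ptch1, Sufu, Gli1, Gli2 and Hhip), against 10.8% of all genes. Against the extracranial tumors, 3 of 9 were (Shh, Ptch1 and Hhip), against 12.1% of all genes. These counts depended on the tool. DESeq2 called 8 and 4 members higher in the 2 contrasts, against 12.6% and 13.8% of all genes, and limma on log2(TPM + 1) called 8 and 7, against 18.3% and 17.3% of all genes. Each intra-CNS tumor lay above each intracranial extra-CNS tumor for 5 members (Shh, Ptch1, Sufu, Gli1 and Gli2), against 17.4% of all genes. Each lay above each extracranial tumor for 4 members (Shh, Ptch1, Hhip and Boc), against 21.8% of all genes.

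Gli1 had a log2 fold change of 3.25 (SE 0.68, edgeR adjusted p = 0.00272) against the intracranial extra-CNS tumors and of -0.0073 (SE 0.67, adjusted p = 1) against the extracranial tumors. The sign of the latter turned under other scalings, with values of 0.024 with DESeq2 size factors and 0.27 on log2(TPM + 1). Hhip had the opposite order, with 3.42 (SE 0.76, edgeR adjusted p = 0.00405) against intracranial extra-CNS and 6.34 (SE 0.94, adjusted p = 0.000263) against extracranial tumors. Ptch1 was higher against both, with 3.25 (SE 0.58, edgeR adjusted p = 0.00100) and 2.49 (SE 0.60, adjusted p = 0.00647). Gli2 had values of 4.34 (SE 1.14, edgeR adjusted p = 0.0109) and 2.87 (SE 1.15, adjusted p = 0.0724), and the latter became 4.61 (adjusted p = 0.00921) without the tumor of 43990A. Without that tumor, Sufu was called as well, so that 5 members were called against the extracranial tumors, with 12.2% of all genes called and higher.

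**Figure D3:**
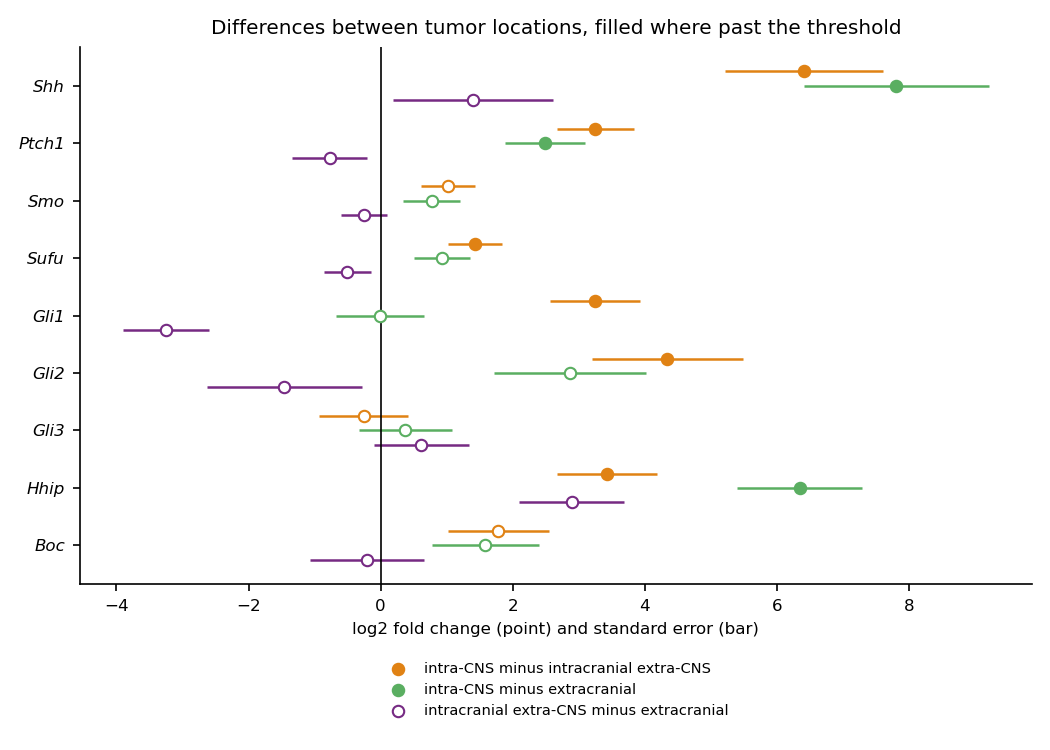
Log2 fold changes (points) with standard errors (bars) of the 9 genes between each pair of locations, from edgeR on 5 intra-CNS, 6 intracranial extra-CNS and 5 extracranial tumors. Filled points passed the threshold, which no gene did between the 2 extra-CNS locations.

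The question of location within the study's Myc tumors was addressed with a fit on the 11 extra-CNS tumors alone. No member passed the threshold by edgeR, with 0.0047% of the 21261 genes tested called in either direction (1 gene) and 2606 genes at an unadjusted p under 0.05. Of the members, 2 had an unadjusted p under 0.05. These were Gli1, lower in intracranial extra-CNS than in extracranial tumors, with a log2 fold change of -3.25 (SE 0.65, edgeR adjusted p = 0.345), and Hhip, higher, with 2.89 (SE 0.80, adjusted p = 0.345). DESeq2's Wald test called both (Gli1 -3.24, adjusted p = 0.000138, and Hhip 2.94, adjusted p = 0.00365), with 2.3% of all genes called. Limma on log2(TPM + 1) called neither (adjusted p = 0.569 and 0.827). For Gli1, each extracranial tumor lay above each intracranial extra-CNS tumor, as for 0.325% of the 21841 genes, and for Hhip each lay below, as for 0.499% of genes.

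The tumor of 43990A bears on this comparison. It is extracranial (nose) in the labels and within the skull in the study's own list, and it held the highest Gli1, Gli2, Smo and Sufu of the extra-CNS tumors. Counted as intracranial extra-CNS, it moved the log2 fold change of Gli1 to -1.20 (edgeR adjusted p = 0.690) and turned the sign for Smo, Sufu and Gli2. Without it, Gli1 was at -2.95 (edgeR adjusted p = 0.304). With 43990A as intracranial extra-CNS, Gli1 (1.51, edgeR adjusted p = 0.232) and Sufu (1.04, adjusted p = 0.0607) were no longer called between intra-CNS tumors and that location, where 4 members were called and higher, against 10.9% of all genes.

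Gli1 and Ptch1, both read as pathway output, did not stand in a fixed ratio. Ptch1 TPM per Gli1 TPM was 2.81, 2.85, 3.18, 6.25 and 6.88 in the intra-CNS tumors and 0.346, 0.436, 0.521, 0.602 and 1.11 in the extracranial tumors. It ranged from 1.38 to 17.7 with a median of 2.54 in the intracranial extra-CNS tumors, where 43992A and R26P115 reached 17.7 and 17.4. Intra-CNS and extracranial tumors, which overlapped in Gli1, thus did not overlap in this ratio. Ptch1 alone did not overlap between them either, with each intra-CNS tumor above each extracranial tumor, as for 21.8% of all genes. The ratios are given as a description, with no test.

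**Figure D4:**
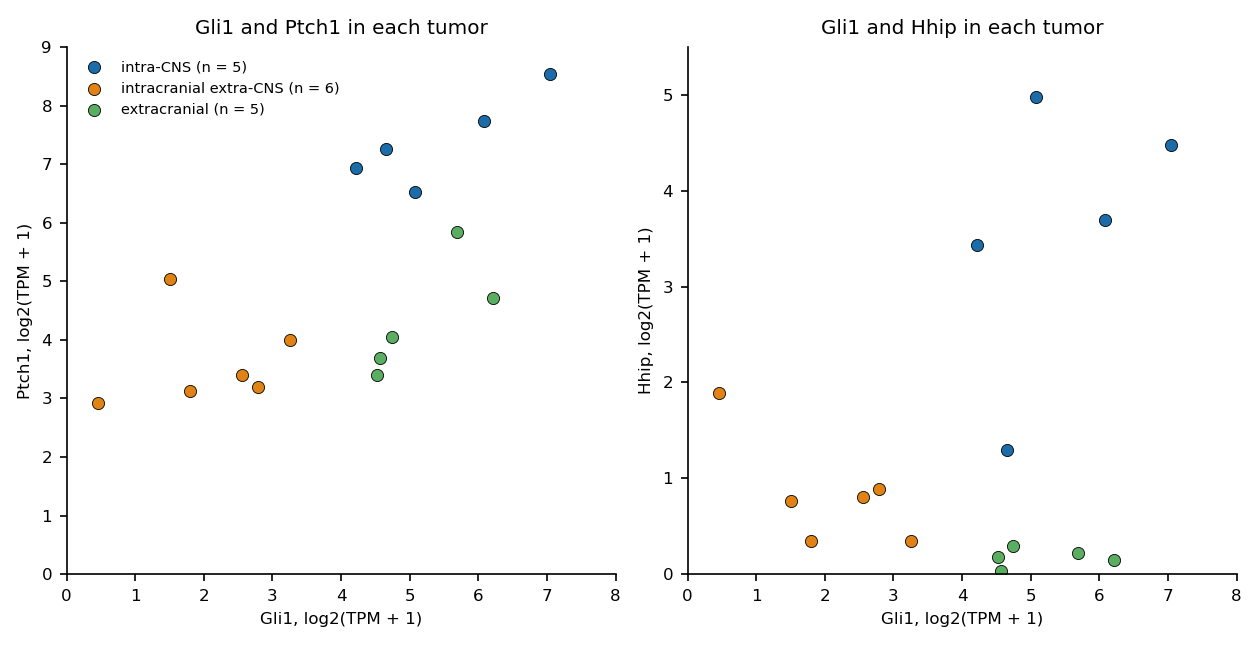
Gli1 (horizontal axis) against Ptch1 and Hhip (vertical axes), each as log2(TPM + 1), with 1 point per tumor colored by location. At Gli1 levels within the intra-CNS range, the 5 extracranial tumors lie below the 5 intra-CNS tumors for both genes.

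Whether other members varied with Gli1 from tumor to tumor was examined across the 11 extra-CNS tumors, with 8 relations and Benjamini-Hochberg adjustment over them. Hhip was inversely related to Gli1 (Pearson r = -0.79, permutation p = 0.00139, adjusted p = 0.0111; Spearman rho = -0.82, permutation p = 0.00334, adjusted p = 0.0267). Since Gli1 did not overlap between the 2 extra-CNS locations, this relation holds the difference between them. With values centred within location, r was -0.59 (permutation adjusted p = 0.268) and rho -0.30 (permutation adjusted p = 0.450). Among the 6 intracranial extra-CNS tumors, r was -0.73 (permutation adjusted p = 0.407) and rho -0.49 (permutation adjusted p = 0.481). Without the 2 tumors farthest from the Gli1 median, those of 43992A and 43990A, r was -0.70 (permutation adjusted p = 0.377) and rho -0.72 (permutation adjusted p = 0.295), so that neither passed. Without 43992A alone neither passed (r = -0.72, permutation adjusted p = 0.184; rho = -0.76, permutation adjusted p = 0.124). Without 43990A alone r passed and rho did not (r = -0.79, permutation adjusted p = 0.0255; rho = -0.79, permutation adjusted p = 0.0726), and the same held without R26P170 (r = -0.80, permutation adjusted p = 0.0185; rho = -0.76, permutation adjusted p = 0.119). For Ptch1, r was 0.53 (permutation p = 0.0942, adjusted p = 0.371) and rho 0.59 (permutation p = 0.0618, adjusted p = 0.247). Without the tumor of R26P115, Ptch1 passed (r = 0.78, permutation adjusted p = 0.0192; rho = 0.90, permutation adjusted p = 0.00560), as did Gli3 (r = -0.71, permutation adjusted p = 0.0433; rho = -0.83, permutation adjusted p = 0.0148). Among the 8 numbered mice, Ptch1 passed by both measures (r = 0.80, permutation adjusted p = 0.0379; rho = 0.90, permutation adjusted p = 0.0173). Hhip passed there by r alone (r = -0.81, permutation adjusted p = 0.0379; rho = -0.79, permutation adjusted p = 0.0749), and Gli3 by rho alone (rho = -0.95, permutation adjusted p = 0.00904; r = -0.74, permutation adjusted p = 0.0571). The other 6 members had r from -0.29 (Gli3) to 0.47 (Sufu), none with an adjusted permutation p under 0.37.

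The day of tamoxifen was compared among the 11 extra-CNS tumors, with 3 induced at E6 or E7 and 8 at E8. No member was called (0% of all genes by edgeR, with 747 genes at an unadjusted p under 0.05, and 39 genes but no member by DESeq2). The log2 fold changes ranged from -1.63 (Hhip, SE 1.23) to 1.40 (Shh, SE 1.26), each with an edgeR adjusted p of at least 0.908. Among tumors induced at E6 alone (5 intra-CNS and 2 extra-CNS), 3 members were called and higher (Shh, Gli2 and Hhip), against 6.29% of all genes, and Ptch1 had a log2 fold change of 1.84 (edgeR adjusted p = 0.134). With all intra-CNS tumors induced at E6 and 8 of 11 extra-CNS tumors at E8, the part of the day in the difference between locations cannot be told apart beyond these values.

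Of 24 other genes of the pathway, 8 were called and higher in intra-CNS than in extra-CNS tumors, 1 was lower and 15 did not pass (median log2 fold change 0.31). Of all genes, 12.9% were called and higher and 13.1% called and lower. The ligand release factor Scube2 was at 1.59 to 5.99 TPM in intra-CNS and at 0 to 0.201 TPM in extra-CNS tumors (log2 fold change 5.05, SE 0.61, edgeR adjusted p = 2.74e-05). Its homolog Scube1 had a log2 fold change of 4.36 (SE 0.96, edgeR adjusted p = 0.00243), and the co-receptor Cdon, related to Boc, one of 2.67 (SE 0.68, adjusted p = 0.00689). The gene that was lower was Hhat, which attaches palmitate to the ligand (-1.70, SE 0.58, edgeR adjusted p = 0.0342), a call that was lost without the tumor of 29048 and that limma on log2(TPM + 1) did not make. The co-receptor Gas1, the most abundant of the list by mean TPM, ranged from 32.4 to 534 TPM in intra-CNS and from 10.7 to 1348 TPM in extra-CNS tumors and did not pass (log2 fold change -1.36, SE 1.11, edgeR adjusted p = 0.353).

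Among genes known to respond to Hedgehog signals, all 6 of the ventral neural targets were called and higher in intra-CNS tumors (median log2 fold change 5.27), against 12.9% of all genes. DESeq2 called the 5 of them to which it gave an adjusted p, all but Olig2, against 14.4% of all genes. They encode transcription factors of ventral progenitors: Nkx2-1 (6.82, SE 1.15, edgeR adjusted p = 0.000344), Foxa2 (5.57, SE 1.08, adjusted p = 0.000977), Nkx6-2, Olig2, Nkx2-2 and Nkx6-1. Olig2, the highest of them by mean TPM, was at 7.09 to 54.1 TPM in intra-CNS tumors (median 7.60 TPM, highest in the tumor of 29048) and at 0 to 1.18 TPM in extra-CNS tumors. Of the 6 mesenchymal targets, 3 were lower in intra-CNS tumors and none was higher (median -3.74), against 13.1% of all genes called and lower. Among them were Foxf1 (-4.67, SE 1.51, edgeR adjusted p = 0.0256) and Osr2 (-4.57, SE 1.60, adjusted p = 0.0366). By limma on log2(TPM + 1), none of the 6 was called, and 0 had an unadjusted p under 0.05. Without the tumor of 29048, 2 were called lower by edgeR. Foxf1 was spread within the extra-CNS tumors, from 0.0915 to 77.8 TPM. Extracranial tumors, with Gli1 at 21.9 TPM or above, had a median Foxf1 of 0.865 TPM, and intracranial extra-CNS tumors, with Gli1 at 8.56 TPM or below, one of 16.0 TPM (edgeR log2 fold change between them 1.06, SE 1.42, adjusted p = 0.782).

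Among 5 growth targets, Mycn alone was called higher and Bcl2, an anti-apoptotic gene, alone lower in intra-CNS tumors (median log2 fold change -0.67). The shares of all genes called higher and lower were 12.9% and 13.1%. Mycn was at 34.4 to 377 TPM in intra-CNS and at 0 to 2.47 TPM in extra-CNS tumors (log2 fold change 7.94, SE 0.81, edgeR adjusted p = 7.67e-06). Bcl2 had a log2 fold change of -1.46 (SE 0.37, edgeR adjusted p = 0.00705), a call that limma on log2(TPM + 1) did not make. Ccnd1, the cyclin D1 gene, was the most abundant and did not pass (-1.05, SE 0.46, edgeR adjusted p = 0.0931).

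The primary cilium, in which Smo and the Gli proteins are regulated, was read from 24 genes. Of these, 3 were called and higher in intra-CNS tumors, none was lower and 21 did not pass (median log2 fold change 0.63). The 3 were the kinesin subunit gene Kif3a (1.57, SE 0.23, edgeR adjusted p = 0.000127), the kinase gene Ttbk2 (1.34, SE 0.20, adjusted p = 0.000120) and the transition zone gene Tmem67 (1.23, SE 0.30, adjusted p = 0.00518). Of all genes, 12.9% were called and higher. The count depended on the tool, with 5 genes called higher by DESeq2 (14.4% of all genes) and 16 by limma on log2(TPM + 1) (18.7% of all genes), and none lower by either. Without the tumors of 29048 and R26P115 together, 10 were called higher by edgeR, against 14.2% of all genes. The most abundant cilium gene, Ift57, did not pass (0.14, SE 0.52, edgeR adjusted p = 0.850).

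**Figure D5:**
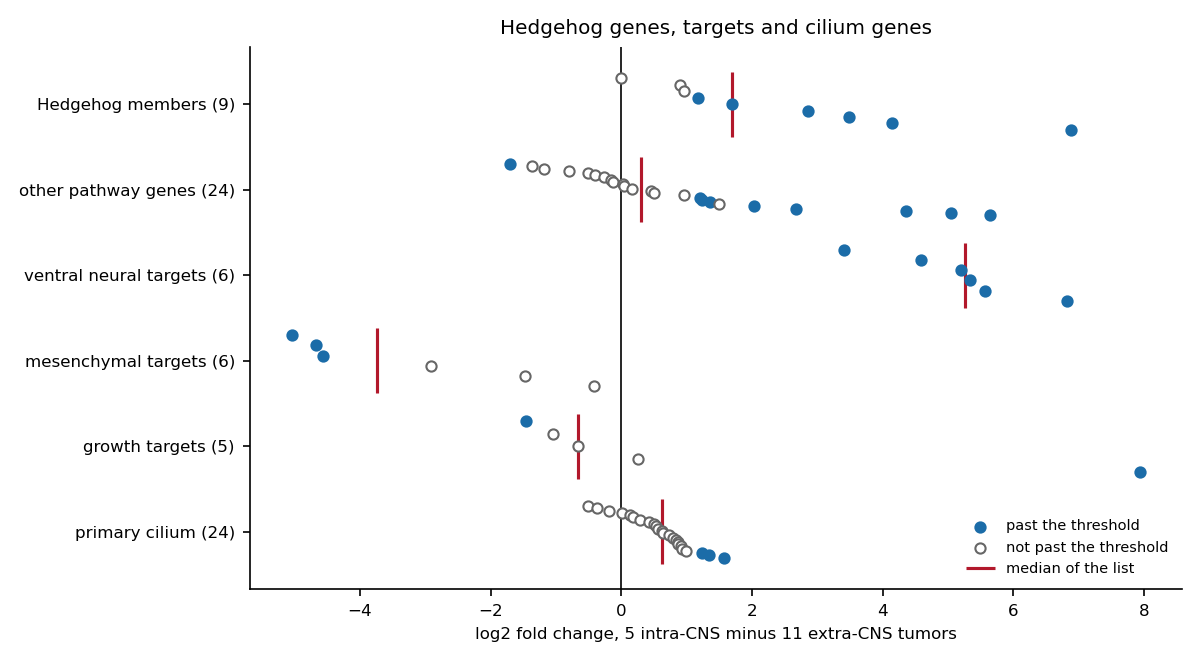
Log2 fold change between the 5 intra-CNS and the 11 extra-CNS tumors (horizontal axis) for each gene of 6 lists (vertical axis, with the number of genes), from edgeR. Filled points passed the threshold and red lines are the medians, at 1.69 for the 9 members and 5.27 for the 6 ventral neural targets.

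Marker genes of several other cell types differed with location. By edgeR, 12.9% of all genes were called and higher in intra-CNS than in extra-CNS tumors, and 13.1% were called and lower. Over 5 fibroblast markers, the summed level was 74.7 to 207 TPM in intra-CNS, 513 to 6827 TPM in intracranial extra-CNS and 1994 to 6878 TPM in extracranial tumors, and all 5 were lower in intra-CNS tumors. All 5 macrophage and microglia markers were also lower in intra-CNS tumors (449 to 756 TPM, against 529 to 3853 TPM and 1901 to 5706 TPM). Limma on log2(TPM + 1) called 4 of the 5 fibroblast markers and 4 of the 5 macrophage and microglia markers lower. Over 5 neuron markers the sums were 98.4 to 3211 TPM, 9.65 to 263 TPM and 31.0 to 111 TPM, with 3 of 5 higher in intra-CNS tumors. The 4 oligodendrocyte markers summed to 3833 TPM in the tumor of 29048 and to 14.3 to 83.2 TPM in the other 4 intra-CNS tumors, against 1.09 to 55.2 TPM in intracranial extra-CNS and 3.87 to 7.96 TPM in extracranial tumors. Those 4 tumors overlapped the intracranial extra-CNS tumors. All 4 markers were called higher by edgeR with 29048, and without it 0 were called and 0 had an unadjusted p under 0.05, against 11% of all genes called and higher. Limma on log2(TPM + 1) called 1 of the 4 with 29048, and DESeq2 gave none of them an adjusted p. Of 4 astrocyte markers (56.5 to 1314 TPM, against 3.06 to 220 TPM and 1.97 to 90.1 TPM), 1 was called higher by edgeR with 29048, 0 without it (1 at an unadjusted p under 0.05), and 2 with it by DESeq2 and by limma on log2(TPM + 1). For skeletal muscle, 3 of 4 markers were called lower by edgeR, 4 by DESeq2 and 1 by either limma scale (2.19 to 6.97 TPM, against 3.28 to 78.4 TPM and 12.8 to 598 TPM). The epithelial list had 1 of 5 higher and 1 lower (53.9 to 684 TPM, 52.1 to 1168 TPM and 9.36 to 1069 TPM), and the endothelial list 1 of 4 lower (33.8 to 80.7 TPM, 29.0 to 95.3 TPM and 35.1 to 184 TPM). The endothelial call was lost with either limma scale, with DESeq2 size factors in edgeR and without 29048, while DESeq2 called 2 lower. No marker was at 0 in all tumors of a location. The part of these cell types in the members' levels was not tested. Without the tumors of 29048 and R26P115, a choice made after seeing the data, 6 members were called and higher in intra-CNS tumors, against 14.2% of all genes, with Smo (1.11, edgeR adjusted p = 0.0229) called and Boc (1.85, adjusted p = 0.0550) not. These tumors held the most Smarcb1 of the intra-CNS and of the extra-CNS tumors, at 58.1 and 43.7 TPM.

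Outside the pathway lists, the genes whose log2(TPM + 1) pattern over the 11 extra-CNS tumors was most like that of Gli1 were 1500015A07Rik (Pearson r = 0.93), Mterf1b (0.92) and Tmem63a (0.92), out of 14802 genes compared. For Ptch1 they were Polb (0.91), Fmod (0.90) and Pltp (0.89). For Shh they were Sowaha (0.92), Nr5a2 (0.91) and Nipal4 (0.91), over tumors in which Shh was at 9 counts or fewer in all but that of 29225D. These likenesses were chosen as the highest of many and are a description, with no test.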

How the data were processed

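RNA-seq of 16 tumors was analysed from 2 tables. Per the labels' processing notes and the methods, the authors trimmed reads with Trim Galore, mapped them to mm10 with STAR 2.5.3a and counted them per gene. The table of deposited counts holds raw whole numbers, and the deposited TPM values sum to 1000000 in each tumor. The annotation is not given in the sources used here; positions are from GENCODE (GRCm38). Members, gene lists and tests were chosen with earlier results of these data known.

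Counts were tested with edgeR 4.0.16 (TMM, glmQLFit and glmQLFTest) in R 4.3.3 over genes with a count in any tumor, with Benjamini-Hochberg adjustment over all genes. Alternatives were DESeq2 1.42.0, limma 3.58.1 on log2(TPM + 1) and log2(TPM + 0.1), other size factors, filterByExpr, adjusted p alone, a covariate for how mice were named (numbers or R26P) and leaving out tumors. Correlations used log2(TPM + 1) and 100000 two-sided permutations. Figures and correlations were made in Python 3.11.15 with scipy 1.17.1 and matplotlib 3.10.9. In each set of simulated counts, 200 genes with a mean count of 50 or more were changed. Recovery between intra-CNS and extra-CNS tumors was 57.5% at 4-fold and 73.5% at 8-fold, and 29.0% and 61.5% between the extra-CNS locations. Recovery of genes with lower counts was not simulated. Named beside the members were, in each list, up to 4 called genes of largest fold (mean count 50 or more) and the most abundant gene, and the 3 genes most like Gli1, Ptch1 and Shh. A gene that this rule also names is not reported here. Other genes were named after their values were seen: Ihh, Dhh, Hhat, Nkx2-2 and Nkx6-1.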

Additional observations from a re-analysis of the deposited data

Results flagged for a closer look

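In 4 of 27 sets of values (9 genes in 3 locations), 1 tumor stood apart from the others of its location on the log2(TPM + 1) scale. Chance sets apart about 1 in 20. The extracranial tumor of 43825B was low in Gli3 (0.997, with the next tumor at 3.20) and in Boc (1.16, with the next at 4.15). The intracranial extra-CNS tumor of R26P170 was high in Smo (6.78, next 5.93), and that of 43992A was high in Hhip (1.89, next 0.89).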

How the results depend on the processing

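The number of members called between intra-CNS and extra-CNS tumors was 6, and 3 among tumors induced at E6, 7 with each limma scale and 4 to 6 when single tumors were left out (Smo entered in 3 cases and Boc left in 13). Against intracranial extra-CNS tumors it was 6, with 8 by DESeq2 and by each limma scale and 5 to 7 when single tumors were left out. Between the extra-CNS locations it was 0, and 2 with DESeq2. Against extracranial tumors it was 3, with 4 by DESeq2, 7 by limma on log2(TPM + 1), 7 on log2(TPM + 0.1), 5 with 43990A counted as intracranial and 3 to 5 when single tumors were left out (5 without 43990A). Of the 8 relations to Gli1, 1 passed by Pearson's r, against 0 centred within location, 2 among numbered mice, 0 in intracranial extra-CNS tumors alone (chosen after seeing the data), 0 without the 2 farthest tumors and 0 to 3 when single tumors were left out (0 without 43992A, 3 without R26P115). Of the other lists, compared by tool and scaling after seeing the data, the pathway and growth genes called lower went from 1 each to 0 each with both limma scales, the mesenchymal targets called lower from 3 to 0 on log2(TPM + 1) and 1 on log2(TPM + 0.1), and the cilium genes called higher from 3 to 5 with DESeq2 and 16 with each limma scale, and to 10 without 29048 and R26P115. The pathway genes called lower were 0, and the growth genes called lower 2, without these 2 tumors. The cause of these moves was not tested. With a covariate for how mice were named, Boc was lost (1.61, edgeR adjusted p = 0.0711) and 5 members were called. With 43990A counted as intracranial, Gli1 (1.51, edgeR adjusted p = 0.232) and Sufu (1.04, adjusted p = 0.0607) were no longer called against intracranial extra-CNS tumors, so that 4 members were. Sufu was also lost in that contrast without R26P87 (edgeR adjusted p = 0.0660). The median log2 fold change of all genes between intra-CNS and extra-CNS tumors was -0.15 by edgeR and 0.20 by limma on log2(TPM + 1). By limma on log2(TPM + 1), the genes called divided into 4082 higher and 1324 lower, against 2829 higher and 2860 lower by edgeR.

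Signs turned only for values that were not called. Gli3 between intra-CNS and extra-CNS tumors was 0.032 with DESeq2, 0.68 and 0.83 with limma, 0.032 with DESeq2 size factors, 0.013 with filterByExpr, 0.016 with the name scheme, 1.12 at E6 alone and 0.064 without 29048 and R26P115 (single tumors left out: -0.42 to 0.28). Against intracranial extra-CNS tumors it was 0.47 and 0.60 with limma (single tumors left out: -0.67 to 0.18). Against extracranial tumors it ran from -0.037 to 0.60 when single tumors were left out. Gli1 against extracranial tumors was 0.024 with DESeq2, 0.27 and 0.27 with limma, 0.024 with DESeq2 size factors, 0.0045 with filterByExpr, 0.32 with 43990A as intracranial and 0.010 with only these 2 groups (-0.65 to 0.32). Between the extra-CNS locations, 43990A as intracranial gave 0.29 for Smo, 0.42 for Sufu and 1.49 for Gli2. Single tumors left out gave -0.48 to 0.058, -0.65 to 0.0065 and -2.07 to 0.28 for these, and -1.08 to 0.099 for Boc. By day of tamoxifen the ranges were -0.059 to 1.97 for Shh, -0.46 to 1.24 for Ptch1, -0.62 to 0.27 for Smo and -1.81 to 0.83 for Gli1. The r of Gli1 with Shh was 0.19 centred within location, 0.26 in intracranial extra-CNS tumors and -0.41 to 0.024 with single tumors left out. Without the 2 farthest tumors r was -0.16 for Smo, -0.071 for Gli2 and -0.12 for Boc (-0.019 to 0.61 for Boc with single tumors left out).

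No paired analysis was possible because no 2 tumors came from the same mouse and replicate numbers only name tumors. Depth limits Shh outside the brain parenchyma, where 3 counts correspond to 0.0272 to 0.168 CPM. For Hhip it is a limit mainly in the extracranial tumors, which held 3 to 29 counts, with 1 of them at the floor.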
